A study of Mus musculus with 8 samples.

Results

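T cell receptor gene segments are the variable (V), diversity (D), joining (J), and constant (C) pieces from which receptor transcripts are assembled. They were taken as all genes of the count table with a T cell receptor V, D, J, or C biotype, which were 226 of 54532 genes. These comprised 144 V, 4 D, 70 J, and 8 C genes. The symbol's prefix placed 214 of them in a chain, 10 with older Tcrg symbols belonged to the gamma chain, and 2 with clone names were placed in the alpha chain by their RefSeq symbols. The alpha chain had 162 segments, the beta chain 39, the gamma chain 15, and the delta chain 10. In GRCm38, the coordinates of the table, alpha and delta segments lie on chromosome 14, beta segments on chromosome 6, and gamma segments on chromosome 13.

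Tumors were grown from 4T1-FLuc, a mouse triple-negative breast cancer (TNBC) line with a firefly luciferase gene, injected under the skin of female BALB/cJ mice, which have an intact immune system and were 6 weeks old at injection. Control mice received saline (saline, 4 tumors). Treated mice received mAb-DXd/IMQ (4 tumors), a humanized CD276 antibody linked to both DXd, a TOP1 inhibitor, and IMQ, an agonist of TLR7 and TLR8, at 16 mg/kg by tail vein every 4 days for 5 courses. Tumor RNA was collected at the study endpoint and poly-A selected, and reads were counted per gene. Totals were 49398150, 45019927, 56388627, and 69582375 counts in saline tumors 1 to 4 and 51625237, 46196237, 42965317, and 34591912 counts in mAb-DXd/IMQ tumors 1 to 4. Levels are given as CPM, which scales counts to the total of each tumor. A count of 3, used here as the floor, equals between 0.0431 and 0.0867 CPM.

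A developing T cell joins a V and a J segment, and in beta and delta chains a D segment between them, by RAG-mediated recombination, and splicing then adds a constant gene. The join differs between clones, so V usage is a coarse view of how many clones a sample holds. Conventional CD4 and CD8 T cells carry alpha and beta chains, whereas gamma-delta T cells carry the other pair. Constant and J segments can also be transcribed without a complete join, so counts on a constant gene are not a count of receptors.

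Near-identical segments limit what gene-level counts can show. The beta constant genes Trbc1 (chr6:41538218-41539881, plus strand) and Trbc2 (chr6:41546730-41548352, plus strand) differ by 1 of 375 bases in exon 1 (C260A, Trbc1 base first, counted from 1 at the exon's 5′ end), by 3 of 18 in exon 2, and by 15 of 107 in exon 3. Exon 3, which is coding in both and is shown because it holds most of the bases that separate them before the last exon, reads as follows, with differing bases in capitals (GENCODE M21 transcripts, GRCm38, plus strand, chr6:41539229-41539335 for Trbc1 and chr6:41547772-41547878 for Trbc2).
Trbc1: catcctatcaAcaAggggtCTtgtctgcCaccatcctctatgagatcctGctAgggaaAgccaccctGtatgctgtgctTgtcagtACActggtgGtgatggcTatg
Trbc2: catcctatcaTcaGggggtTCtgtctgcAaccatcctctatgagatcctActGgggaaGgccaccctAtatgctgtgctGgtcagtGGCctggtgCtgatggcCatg
Of all 50-base windows in their transcripts, 59.5% in Trbc1 and 56.0% in Trbc2 occurred in no other T cell receptor gene or pseudogene, against 100% in Trac. How reads that match several places were counted is not given in the sources used here, so the split between Trbc1 and Trbc2 is uncertain.

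D and J segments are short targets. The beta D segments have 12 and 14 bases, and beta J segments have between 46 and 54. They are printed because a read that crosses a join holds only a few such bases. In the J segments, capitals mark the codons of the phenylalanine-glycine motif that ends the third complementarity-determining region (chromosome 6, plus strand, chr6:41533201-41533212, chr6:41542163-41542176, chr6:41533864-41533911, and chr6:41543810-41543856 in order).
Trbd1: gggacagggggc
Trbd2: gggactgggggggc
Trbj1-1: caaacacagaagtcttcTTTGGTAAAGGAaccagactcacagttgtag
Trbj2-7: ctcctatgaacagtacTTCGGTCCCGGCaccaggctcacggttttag
The Trbd1, Trbj1, and Trbc1 genes form a cluster upstream of Trbd2, Trbj2, and Trbc2, so a join to a Trbj1 segment is usually spliced to Trbc1 and a join to a Trbj2 segment to Trbc2.

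Of the 226 segments, 139 had at least 1 count in the 8 tumors and 87 had none. Those with a count were 90 of 144 V, 2 of 4 D, 39 of 70 J, and 8 of 8 C genes. The 8 C genes held 10745 of the 14022 counts on all segments, V segments 2394, J segments 852, and D segments 31. Only 17 segments passed the filter on low counts and were tested, comprising 7 C, 6 V, and 4 J genes. Among the 110 alpha V segments, many of which are copies within the locus, 37 had no 50-base window of their own. Of these 37, 23 had no count and 0 reached 10 counts over the 8 tumors. Of the 8 whose windows were all unique, 2 had no count and 4 reached 10 counts. A count of 0 for a copied alpha V segment is therefore not evidence that it was unused. Of all 226 segments, 16 overlap a gene that is no T cell receptor segment, Trdc among them, and library strandedness is not given in the sources used here.

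Alpha chain counts were lower in every mAb-DXd/IMQ tumor than in every saline tumor, while the other 3 chains overlapped between groups. Summed over alpha segments, the level was 4.49, 9.57, 8.21, and 9.10 in saline tumors 1 to 4 and 4.16, 3.62, 2.21, and 3.27 in mAb-DXd/IMQ tumors 1 to 4 (CPM). The means were 7.84 ± 2.30 CPM and 3.31 ± 0.823 CPM (SD, n = 4), a log2 ratio of -1.24. The highest mAb-DXd/IMQ tumor lay just below the lowest saline tumor, and the other saline tumors were well above both. For comparison, among the 18511 genes tested, 6.12% had all mAb-DXd/IMQ tumors below all saline tumors. In bulk RNA, fewer T cells and less receptor RNA per T cell cannot be told apart.

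Beta chain levels were 17.9, 22.4, 23.7, and 28.7 in saline tumors 1 to 4 and 19.4, 22, 14.1, and 18.4 in mAb-DXd/IMQ tumors 1 to 4 (CPM), with means of 23.2 ± 4.43 CPM and 18.5 ± 3.29 CPM (SD, n = 4). The groups overlapped, with saline tumor 1 below 3 of the 4 mAb-DXd/IMQ tumors. Gamma chain levels were 7.25, 13.3, 6.83, and 6.68 in saline tumors 1 to 4 and 6.97, 5.56, 3.58, and 6.27 in mAb-DXd/IMQ tumors 1 to 4 (CPM). Saline tumor 2 stood above all others, mAb-DXd/IMQ tumor 1 lay among the other saline tumors, and mAb-DXd/IMQ tumors 2 to 4 lay below them. Delta chain levels were 0.749, 1.22, 1.72, and 0.949 in saline tumors 1 to 4 and 0.639, 1.26, 0.675, and 0.809 in mAb-DXd/IMQ tumors 1 to 4 (CPM), and these groups overlapped as well. As a share of all T cell receptor counts, the alpha chain held 18.9 ± 2.77% (SD, n = 4) with saline and 11.6 ± 1.17% (SD, n = 4) with mAb-DXd/IMQ, again without overlap. Group means of all 4 chains had the same order with TMM-scaled library sizes. Levels were also taken per count on Cd3d, Cd3e, Cd3g, and Cd247, which encode the signaling subunits of the receptor. On this scale the alpha log2 ratio was -0.40 with overlapping groups. The beta, gamma, and delta log2 ratios were 0.50, 0.22, and 0.45, the opposite direction, and these groups overlapped too. The summed CPM of these CD3 genes was itself lower in every mAb-DXd/IMQ tumor than in every saline tumor.

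**Figure D1:**
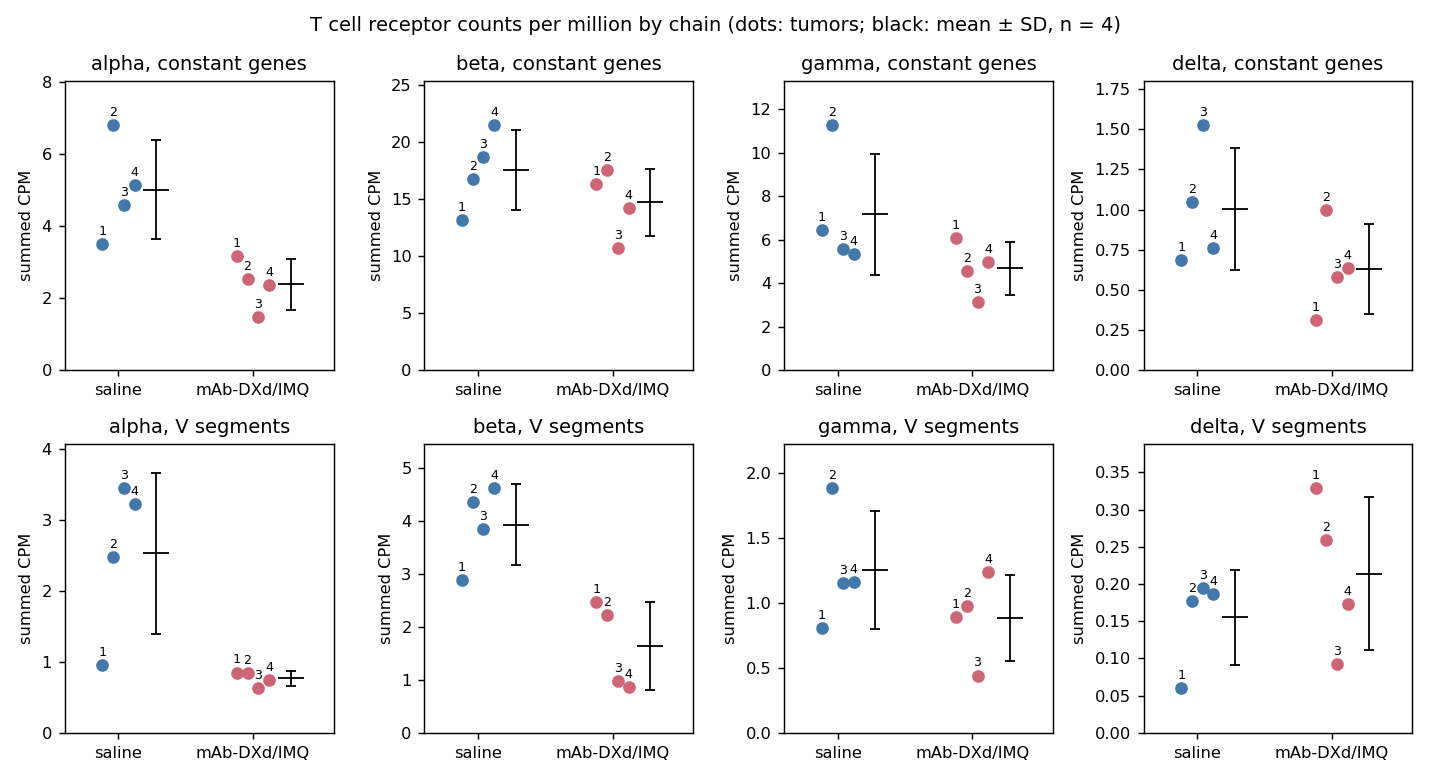
Summed CPM of constant genes (top) and V segments (bottom) for each chain, with 1 dot per tumor labelled by its number and the mean ± SD of 4 tumors in black. Alpha constant, alpha V, and beta V levels did not overlap between groups, whereas the other 5 panels did.

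Among the 7 tested constant genes, only for Trac and Trbc2, both lower, did CPM not overlap between groups, beside 6.12% of all genes lower. With edgeR 0 of the 7 passed, beside 1.06% of all genes. Trac (ENSMUSG00000076928, chr14:54220521-54224206, plus strand), the only alpha constant gene, was at 3.50, 6.80, 4.58, and 5.13 in saline tumors 1 to 4 and 3.18, 2.53, 1.47, and 2.37 in mAb-DXd/IMQ tumors 1 to 4 (CPM). All 4 mAb-DXd/IMQ tumors lay below the lowest saline tumor (log2 fold change -1.08, SE 0.31, FDR 0.0988, edgeR quasi-likelihood test). Trbc2 (ENSMUSG00000076498) was at 7.17, 6.53, 6.08, and 7.76 in saline tumors 1 to 4 and 4.40, 4.39, 3.12, and 4.86 in mAb-DXd/IMQ tumors 1 to 4 (CPM). Its groups were also separate (log2 fold change -0.74, SE 0.21, FDR 0.0957). Trbc1 (ENSMUSG00000076490) was at 5.99, 10.2, 12.6, and 13.7 in saline tumors 1 to 4 and 11.9, 13.1, 7.61, and 9.37 in mAb-DXd/IMQ tumors 1 to 4 (CPM), with overlapping groups (log2 fold change -0.04, SE 0.28, FDR 0.959). Its fold change was near 0 and took the other sign with upper quartile scaling. Per kilobase of transcript, the mean level over the 8 tumors was 14.1 CPM for Trbc1, 8.0 CPM for Trbc2, and 3.95 CPM for Trac.

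The ratio of Trbc1 to Trbc2 counts, chosen for description after these values were seen, was 0.836, 1.57, 2.07, and 1.76 in saline tumors 1 to 4 and 2.70, 2.99, 2.44, and 1.93 in mAb-DXd/IMQ tumors 1 to 4. The means were 1.56 ± 0.525 and 2.51 ± 0.450 (SD, n = 4), and mAb-DXd/IMQ tumor 4 lay within the saline range. The difference of means was larger than the SD in either group. No p-value is given, since the ratio was chosen for its values in these tumors, and it rests on genes that share most of their first exon.

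**Figure D2:**
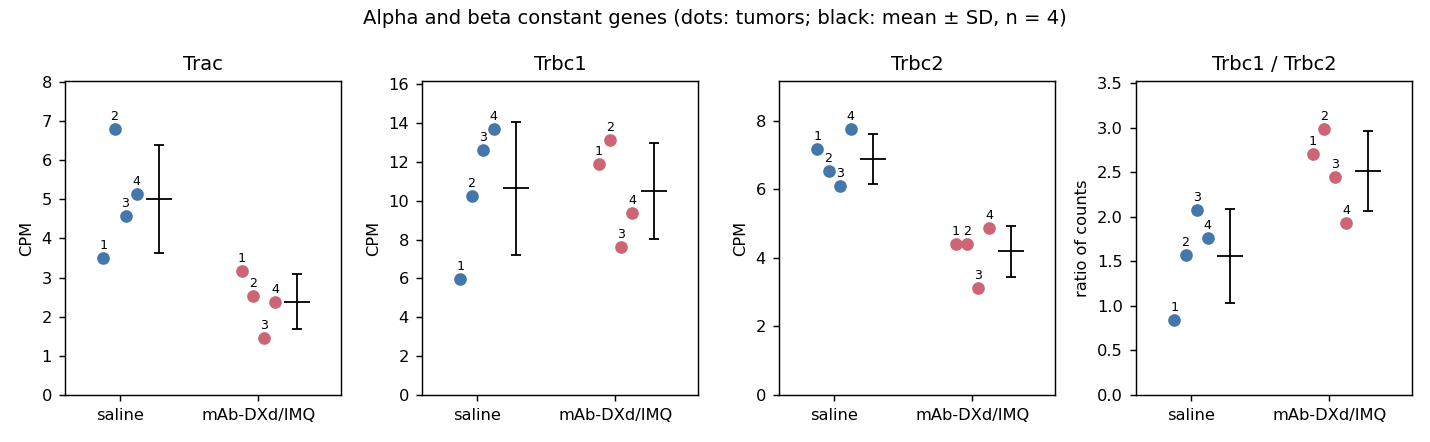
CPM of Trac, Trbc1, and Trbc2 and the ratio of Trbc1 to Trbc2 counts, with 1 dot per tumor and the mean ± SD of 4 tumors in black. Trac and Trbc2 did not overlap between groups, and Trbc1 and the ratio did.

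With edgeR's quasi-likelihood test over 18511 genes, 0 of the 17 tested segments passed an FDR of 0.05 with an absolute log2 fold change above 0.58, against 1.06% of all genes (0.519% lower, 0.546% higher). At an unadjusted p under 0.05 there were 4 segments, Trac, Trbc2, Trbv13-2, and Trbv14, all lower in mAb-DXd/IMQ tumors, while 9.79% of all genes were lower and 9.13% higher at that level. The same thresholds were passed by 0 segments with limma-voom, against 0.94% of genes, and by 3 with DESeq2, against 4.25% of genes. DESeq2 gave adjusted p of 0.0121 for Trac, 0.0101 for Trbc2, and 0.00898 for Trbv13-2. The groups did not overlap for 3 segments, Trac, Trbc2, and Trbv14, all lower, and for 0 higher, beside 6.12% of all genes lower and 7.18% higher. The fitted fold change was below 0 for 12 of the 17, with a median of -0.51, and for 47.4% of all genes, with a median of 0.02. Segments enter the test only with enough counts, so these 17 do not stand for all 226. Over all genes 197 passed, and this fell to 10, 11, and 12 without saline tumor 3, saline tumor 4, and mAb-DXd/IMQ tumor 4, and to 111, 76, and 88 without saline tumor 2, mAb-DXd/IMQ tumor 2, and mAb-DXd/IMQ tumor 3, while 0 segments passed each time.

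**Figure D3:**
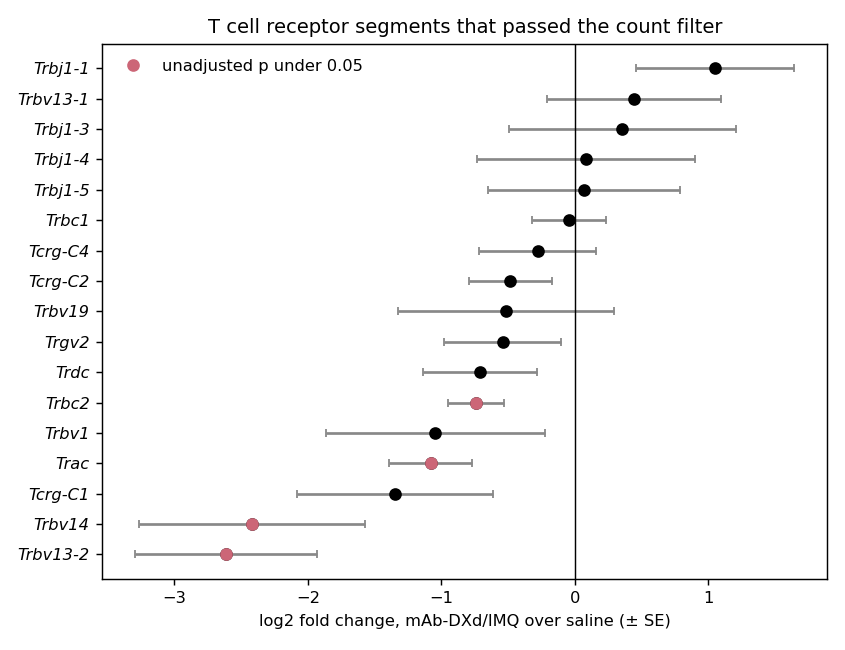
Log2 fold change of mAb-DXd/IMQ over saline tumors (± SE) for the 17 tested segments, with red dots for the 4 at an unadjusted p under 0.05. Values ran from -2.61 for Trbv13-2 to 1.05 for Trbj1-1, and 0 of 17 passed the thresholds after adjustment with edgeR.

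Alpha and beta V segments had few counts, and their summed levels were lower in every mAb-DXd/IMQ tumor than in every saline tumor. Alpha V counts were 47, 112, 195, and 225 in saline tumors 1 to 4 and 44, 39, 27, and 26 in mAb-DXd/IMQ tumors 1 to 4, or 2.53 ± 1.13 CPM and 0.769 ± 0.104 CPM (SD, n = 4). Beta V counts were 143, 196, 217, and 322 in saline tumors 1 to 4 and 128, 103, 42, and 30 in mAb-DXd/IMQ tumors 1 to 4, or 3.93 ± 0.763 CPM and 1.64 ± 0.834 CPM (SD, n = 4). On the CPM scale neither chain's groups overlapped, with log2 ratios of -1.72 for alpha and -1.26 for beta. Per count on those 4 CD3 genes, a scale added for V segments after the data were seen, the log2 ratios were -0.82 and -0.48, and both overlapped. In CPM, saline tumor 1 was the lowest saline tumor in both. Gamma V levels were 1.25 ± 0.454 CPM and 0.888 ± 0.333 CPM (SD, n = 4), and delta V levels were 0.155 ± 0.0633 CPM and 0.214 ± 0.103 CPM (SD, n = 4), higher on average with mAb-DXd/IMQ. Both of these overlapped between groups, and delta V segments had 3 to 17 counts per tumor. Ratios of V to constant counts were chosen after values were seen. Per beta constant count, beta V counts were 0.220, 0.260, 0.206, and 0.216 in saline tumors 1 to 4 and 0.152, 0.127, 0.0911, and 0.0610 in mAb-DXd/IMQ tumors 1 to 4, so every mAb-DXd/IMQ tumor had fewer V counts per constant count than every saline tumor. The alpha ratio, 0.506 ± 0.225 and 0.337 ± 0.0671 (SD, n = 4), overlapped, as did the gamma ratio, 0.179 ± 0.0417 and 0.188 ± 0.0531 (SD, n = 4).

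Trbv13-2, with the most counts of all beta V segments, and Trbv26, described further on, contrast a segment mostly found in saline tumors with one mostly found in mAb-DXd/IMQ tumors. Their second exons follow, with the codon of the conserved cysteine before the join in capitals (GRCm38, plus strand, chr6:41121539-41121832 and chr6:41227699-41227993).
Trbv13-2: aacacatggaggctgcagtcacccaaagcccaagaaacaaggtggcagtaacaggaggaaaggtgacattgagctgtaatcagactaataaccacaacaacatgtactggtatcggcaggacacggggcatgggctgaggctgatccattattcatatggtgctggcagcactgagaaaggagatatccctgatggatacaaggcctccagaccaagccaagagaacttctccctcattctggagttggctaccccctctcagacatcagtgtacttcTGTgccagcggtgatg
Trbv26: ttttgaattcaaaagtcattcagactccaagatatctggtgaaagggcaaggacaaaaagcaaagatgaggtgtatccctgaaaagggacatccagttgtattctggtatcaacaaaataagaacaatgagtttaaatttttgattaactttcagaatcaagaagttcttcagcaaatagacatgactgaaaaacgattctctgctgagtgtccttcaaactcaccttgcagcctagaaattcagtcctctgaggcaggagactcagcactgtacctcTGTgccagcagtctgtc
Trbv13-2 had 11, 39, 73, and 65 counts in saline tumors 1 to 4 and 2, 14, 4, and 4 in mAb-DXd/IMQ tumors 1 to 4. Saline tumors 2 to 4 were high, and saline tumor 1 overlapped mAb-DXd/IMQ tumor 2 on the CPM scale (log2 fold change -2.61, SE 0.68, FDR 0.0763). Trbv14 had 15, 35, 16, and 30 counts in saline tumors 1 to 4 and 2, 12, 1, and 0 in mAb-DXd/IMQ tumors 1 to 4, with no overlap in CPM (log2 fold change -2.42, SE 0.84, FDR 0.157). With 1 tumor left out the fold change ran over -4.18 to -2.03 for Trbv14 and -3.38 to -2.31 for Trbv13-2, in both lowest without mAb-DXd/IMQ tumor 2. Trbv13-1, a neighbor of Trbv13-2, had 13, 17, 10, and 14 counts in saline tumors 1 to 4 and 39, 15, 4, and 6 in mAb-DXd/IMQ tumors 1 to 4. Most mAb-DXd/IMQ counts came from tumor 1, and its fold change of 0.44 (SE 0.65, FDR 0.763) became -0.40 without that tumor. Trbv19 (log2 fold change -0.51, SE 0.81) and Trbv1 (-1.04, SE 0.82) overlapped between groups, and with 1 tumor left out ran over -1.49 to -0.16 and -1.90 to -0.67, in that order. Trbv1 had no value without saline tumor 1. Trbv29 was not tested. It had 7, 6, 57, and 67 counts in saline tumors 1 to 4 and 5, 7, 9, and 0 in mAb-DXd/IMQ tumors 1 to 4, so most of its counts came from saline tumors 3 and 4.

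The leading V segment differed from tumor to tumor. For the beta chain, the largest share of V counts (with its 95% Wilson interval) belonged to Trbv31 in saline tumor 1 (28.7%, 21.9 to 36.6%), Trbv13-2 in saline tumor 2 (19.9%, 14.9 to 26.0%), Trbv13-2 in saline tumor 3 (33.6%, 27.7 to 40.2%), and Trbv29 in saline tumor 4 (20.8%, 16.7 to 25.6%). In the other group it belonged to Trbv13-1 in mAb-DXd/IMQ tumor 1 (30.5%, 23.2 to 38.9%), Trbv26 in mAb-DXd/IMQ tumor 2 (16.5%, 10.6 to 24.9%), Trbv29 in mAb-DXd/IMQ tumor 3 (21.4%, 11.7 to 35.9%), and Trbv13-1 in mAb-DXd/IMQ tumor 4 (20%, 9.51 to 37.3%), where Trbv19 had the same count. Thus 3 segments led the saline tumors and, counting this tie, 4 led the mAb-DXd/IMQ tumors, with Trbv29 in both. Alpha chain leaders were Trav12-3 in saline tumor 1 (25.5%, 15.3 to 39.5%), Trav5-1 in saline tumor 2 (26.8%, 19.5 to 35.7%), Trav8d-1 in saline tumor 3 (39.0%, 32.4 to 46.0%), and Trav2 in saline tumor 4 (14.7%, 10.6 to 19.9%). In mAb-DXd/IMQ tumors they were Trav3-3 in mAb-DXd/IMQ tumor 1 (38.6%, 25.7 to 53.4%), Trav21-dv12 in mAb-DXd/IMQ tumor 2 (25.6%, 14.6 to 41.1%), Trav15n-1 in mAb-DXd/IMQ tumor 3 (33.3%, 18.6 to 52.2%), and Trav3-3 in mAb-DXd/IMQ tumor 4 (30.8%, 16.5 to 50%). Trav3-3 was the only alpha segment to lead more than 1 tumor, and 60.0% of its windows and 55.8% of those of Trav8d-1 are unique, so counts on them are uncertain. Trav15n-1 has no unique window, so its lead in mAb-DXd/IMQ tumor 3 cannot be told from a lead of its copies. Trav13-2, among the 5 alpha V segments with the highest mean level, led 0 tumors and had 3, 0, 2, and 4 counts in saline tumors 1 to 4 and 0, 4, 7, and 7 in mAb-DXd/IMQ tumors 1 to 4. Shares were higher in every mAb-DXd/IMQ tumor than in every saline tumor for Trav3-3, 1 of the 63 alpha V segments with a count. The same held for Trbv13-1, 1 of the 17 beta V segments. Over all genes tested, 7.18% were higher without overlap, but in CPM and after the count filter. Many V segments had 0 counts in the mAb-DXd/IMQ group and could not be higher, so this percentage is not a like comparison. The share of Trav3-3 was 4.26, 0, 4.10, and 3.56 in saline tumors 1 to 4 and 38.6, 7.69, 22.2, and 30.8 in mAb-DXd/IMQ tumors 1 to 4 (percent of alpha V counts). Its 7.69% in mAb-DXd/IMQ tumor 2 rests on 3 counts. The share of Trbv13-1 was 9.09, 8.67, 4.61, and 4.35 in saline tumors 1 to 4 and 30.5, 14.6, 9.52, and 20 in mAb-DXd/IMQ tumors 1 to 4 (percent of beta V counts). In CPM, the groups overlapped for both Trav3-3 and Trbv13-1. Shares were lower without overlap for Trav8d-2, 1 of the 63 alpha V segments, and Trbv20, 1 of the 17 beta V segments. Over all genes tested, 6.12% were lower without overlap, again in CPM. Trav8d-2 and Trbv20 were counted in all 4 saline tumors but had 0 counts in the other group, which had fewer V counts. These shares were not tested. Intervals cover counting error only, with counts taken as independent, and several leaders in mAb-DXd/IMQ tumors rest on 10 or fewer counts.

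**Figure D4:**
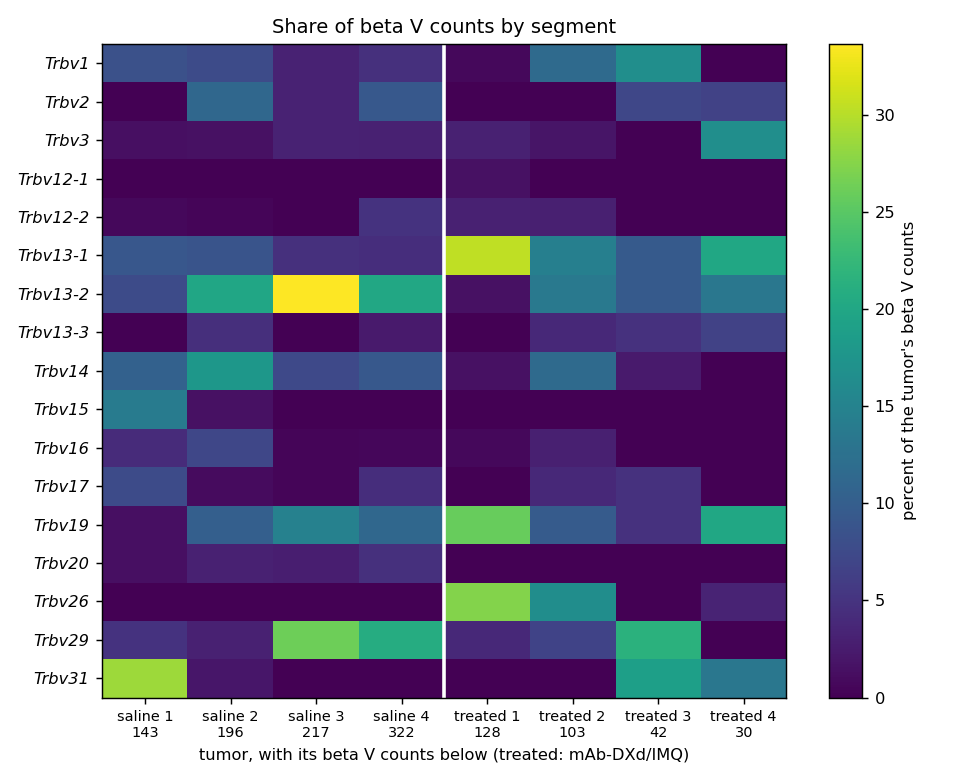
Percent of each tumor's beta V counts on the 17 beta V segments with a count, with the tumor's beta V total under its name. Trbv13-2 was highest in saline tumor 3 (33.6%). Trbv26 was seen in 3 mAb-DXd/IMQ tumors, of which tumor 4 had only 1 count, and in 0 saline tumors.

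V diversity was described by the inverse Simpson index, the number of equally used segments that would give the same chance that a pair of counts falls on the same segment. For the alpha chain this effective number was 8.01, 9.36, 5.84, and 15.8 in saline tumors 1 to 4 and 4.42, 8.82, 4.74, and 5.51 in mAb-DXd/IMQ tumors 1 to 4. The means were 9.75 ± 4.27 and 5.87 ± 2.02 (SD, n = 4), and the groups overlapped, with saline tumor 3 low, where Trav8d-1 held 76 of its 195 counts. The number of alpha V segments with a count was 14, 23, 27, and 37 in saline tumors 1 to 4 and 7, 11, 6, and 7 in mAb-DXd/IMQ tumors 1 to 4, with no overlap, but it depends on the total. At an equal 26 counts per tumor, the expected number of alpha V segments was 10.6, 12.9, 12.1, and 14.9 in saline tumors 1 to 4 and 6.26, 9.96, 5.96, and 7.0 in mAb-DXd/IMQ tumors 1 to 4. The groups were then separate by a small gap, 9.96 in mAb-DXd/IMQ tumor 2 against 10.6 in saline tumor 1. The exponential of the Shannon entropy, which gives rare segments more weight, was also separate, with 8.84 and 9.29 in the same tumors, but it was taken over all counts and so depends on the total too. The expectation at 26 counts takes counts as independent. If both mates of a read pair were counted, 26 counts need not stand for equal numbers of read pairs in each tumor. Whether the small gap would then remain was not tested.

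For the beta chain the effective number was 7.21, 8.81, 4.72, and 8.10 in saline tumors 1 to 4 and 4.30, 9.57, 8.36, and 8.06 in mAb-DXd/IMQ tumors 1 to 4. The means, 7.21 ± 1.79 and 7.57 ± 2.27 (SD, n = 4), differed by less than the SD in either group. At an equal 30 counts the expected number of beta V segments was 9.66, 10.5, 7.52, and 10.1 in saline tumors 1 to 4 and 6.78, 10.2, 9.46, and 8.0 in mAb-DXd/IMQ tumors 1 to 4, and these overlapped too. Saline tumor 3 and mAb-DXd/IMQ tumor 1 were the least even by both measures. In all 8 tumors, genes with a count of 2 outnumbered genes with a count of 1, for example 1490 against 1052 in saline tumor 1. If both mates of a read pair were counted, intervals that take counts as independent are too narrow, and equal counts need not be equal numbers of read pairs. This was not tested.

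**Figure D5:**
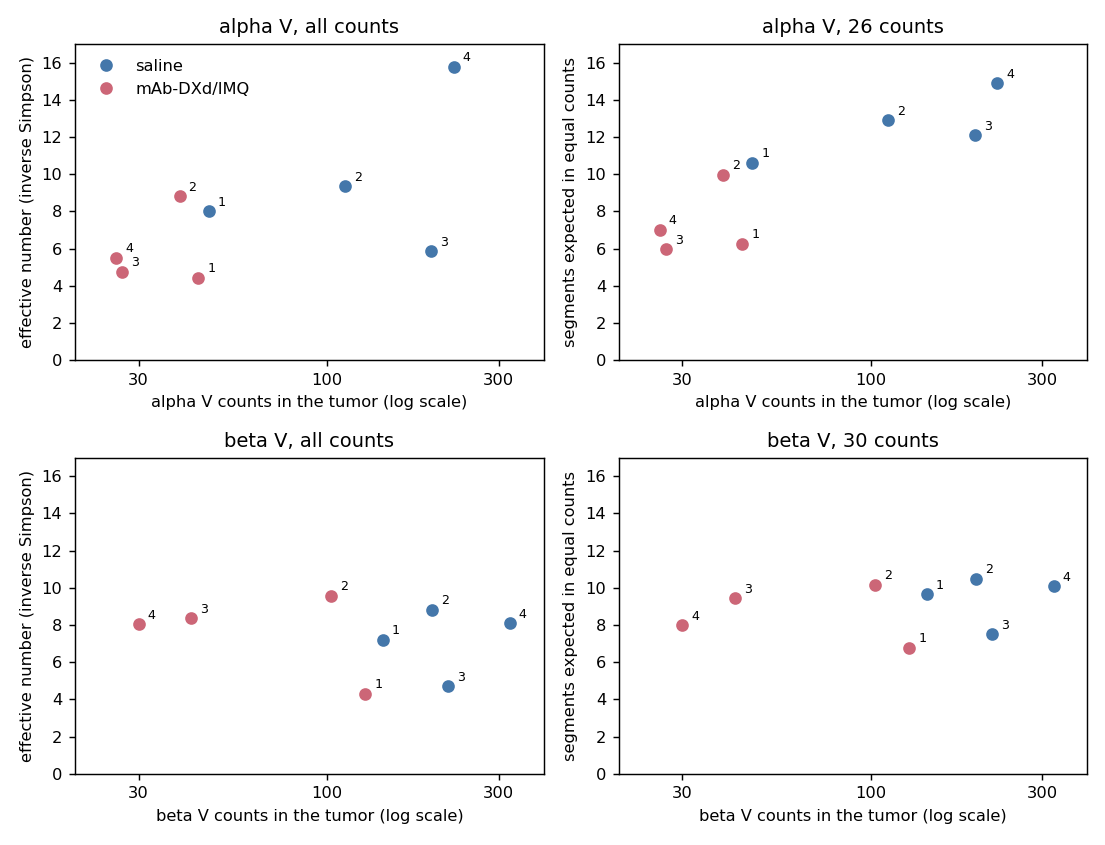
Effective number of V segments from all counts (left) and the number expected in equal counts (right) against the tumor's V counts on a log scale, alpha above and beta below, with 1 dot per tumor labelled by its number. Of these 4 panels, the groups were separate in that of the alpha chain at 26 counts, and mAb-DXd/IMQ tumors had fewer V counts.

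Beta J counts did not follow beta V counts. Trbj1 segments, the J cluster before Trbc1, had 58, 52, 39, and 134 counts in saline tumors 1 to 4 and 27, 78, 96, and 102 in mAb-DXd/IMQ tumors 1 to 4, and Trbj2 segments had 32, 5, 21, and 35 in saline tumors 1 to 4 and 4, 17, 7, and 10 in mAb-DXd/IMQ tumors 1 to 4. In CPM, all beta J segments together were at 1.65 ± 0.613 and 2.07 ± 1.10 (SD, n = 4), with wide overlap. Trbj1 was the larger cluster in 8 of 8 tumors. Per beta V count, beta J counts were 0.629, 0.291, 0.276, and 0.525 in saline tumors 1 to 4 and 0.242, 0.922, 2.45, and 3.73 in mAb-DXd/IMQ tumors 1 to 4, so mAb-DXd/IMQ tumors 2 to 4 were above all saline tumors and mAb-DXd/IMQ tumor 1 was below them. The most abundant J segment, Trbj1-5, had 14, 14, 12, and 27 counts in saline tumors 1 to 4 and 1, 8, 27, and 18 in mAb-DXd/IMQ tumors 1 to 4 (log2 fold change 0.07, SE 0.72, FDR 0.973), and its sign changed with limma-voom. Trbj1-1 was higher on average (log2 fold change 1.05, SE 0.59, FDR 0.367) but did not pass. Trbd1, the most abundant D segment, had 28 counts in all.

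Segments used by invariant T cells had few counts, apart from Trav1 in saline tumor 4. Trav11 and Trav11d, the alpha V segments of invariant natural killer T cells, had 0 counts in each tumor, but neither has a 50-base window of its own, so this depth and counting cannot show that they were absent. Their partner Traj18 (chr14:54200777-54200842) had 2 counts in all, in saline tumor 4. Traj18: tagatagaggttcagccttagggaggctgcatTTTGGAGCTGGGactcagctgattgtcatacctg. It is shown because all its windows are unique, and the motif codons are in capitals. Trav1 and Traj33, used by mucosal-associated invariant T cells, had 22 and 2 counts, with 21 of the Trav1 counts in saline tumor 4 (0.302 CPM, 9.33% of its alpha V counts), where Traj33 had 0. Both Traj33 counts were in mAb-DXd/IMQ tumor 2, which had 0 on Trav1.

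Mammary tumor virus superantigens in BALB/c mice delete many T cells that use Trbv26, Trbv12-1, Trbv12-2, Trbv16, or Trbv15. Together these 5 segments held 18.9, 9.18, 0.461, and 5.59% of beta V counts in saline tumors 1 to 4 and 32.8, 22.3, 0, and 3.33% in mAb-DXd/IMQ tumors 1 to 4. The highest shares were in mAb-DXd/IMQ tumors 1 and 2, and the groups overlapped. Trbv26, the largest of these in mAb-DXd/IMQ tumors 1 and 2, had 0, 0, 0, and 0 counts in saline tumors 1 to 4 and 35, 17, 0, and 1 in mAb-DXd/IMQ tumors 1 to 4. In mAb-DXd/IMQ tumor 1 its share was 27.3% of beta V counts (95% Wilson interval 20.4 to 35.6%), and in saline tumor 4 0 of 322 were counted, where the floor of 3 counts would be 0.932%. Trbv26 did not pass the count filter and was not tested. In saline tumors the counts of this group were led by Trbv15, with 20 of 23 of its counts in tumor 1, Trbv16, and Trbv12-2, with 16 of 18 in tumor 4.

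Gamma chain counts came mostly from Tcrg-C2, and Trgv2 had most of those on gamma V segments. Tcrg-C2 (ENSMUSG00000076752, chr13:19304649-19307551, minus strand) was at 4.84, 7.69, 4.26, and 3.05 in saline tumors 1 to 4 and 4.32, 3.53, 2.51, and 3.99 in mAb-DXd/IMQ tumors 1 to 4 (CPM), highest in saline tumor 2 and otherwise overlapping (log2 fold change -0.48, SE 0.31, FDR 0.433). Trgv2 had 36, 69, 55, and 53 counts in saline tumors 1 to 4 and 35, 36, 13, and 36 in mAb-DXd/IMQ tumors 1 to 4 (log2 fold change -0.54, SE 0.44, FDR 0.547). Without saline tumor 2 these fold changes were -0.19 and -0.26, and over all tumors left out in turn they ran over -0.65 to -0.19 and -0.76 to -0.26. Tcrg-C1, whose V partners include Tcrg-V6, ranged more widely, with 25, 119, 38, and 69 counts in saline tumors 1 to 4 and 54, 16, 17, and 2 in mAb-DXd/IMQ tumors 1 to 4 (log2 fold change -1.34, SE 0.73, FDR 0.353). Its fold change was -0.62 without saline tumor 2 and -2.20 without mAb-DXd/IMQ tumor 1. Saline tumor 2 had the most of both Tcrg-C1 and Tcrg-V6, which had 12 of its 14 counts there. Tcrg-C4 (log2 fold change -0.28, SE 0.44, FDR 0.781) overlapped, and its fold change was near 0 without mAb-DXd/IMQ tumor 3. Tcrg-C3 had 58 counts over the saline group and 2 over the mAb-DXd/IMQ group, and was not tested. The other gamma V segments with at least 10 counts were Tcrg-V1 with 32, Tcrg-V7 with 24, and Tcrg-V3 with 11.

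The delta constant gene Trdc (ENSMUSG00000104876, chr14:54142851-54148868, plus strand) was at 0.688, 1.04, 1.53, and 0.762 in saline tumors 1 to 4 and 0.310, 0.996, 0.582, and 0.636 in mAb-DXd/IMQ tumors 1 to 4 (CPM), with overlapping groups (log2 fold change -0.71, SE 0.43, FDR 0.401; -1.03 to -0.44 with 1 tumor left out). It overlaps Trdv5, with 1 count, and Gm43434, with 21 counts, so its count is uncertain. Per kilobase its mean level over the 8 tumors was 0.212 CPM, below the 4.67 CPM of Tcrg-C2. Trdv4 had 61 counts and Trdv2-2 had 12, and delta D and J segments had 0.

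Genes of the receptor complex and of signaling next to it were also described. All 7 of the receptor complex and coreceptor list (Cd3d, Cd3e, Cd3g, Cd247, Cd4, Cd8a, Cd8b1) had a fold change below 0 with a median of -1.19, and 2 passed, Cd4 (log2 fold change -1.91, SE 0.25, FDR 0.0201) and Cd8a (log2 fold change -1.22, SE 0.17, FDR 0.0201). Of all genes, 47.4% had a fold change below 0 and 0.519% passed as lower. Summed CD3 levels over Cd3d, Cd3e, Cd3g, and Cd247 were 22.2, 36.7, 35.9, and 26.5 in saline tumors 1 to 4 and 20.3, 18.1, 11.1, and 18.2 in mAb-DXd/IMQ tumors 1 to 4 (CPM), with saline tumor 1 in between the other saline tumors and the highest mAb-DXd/IMQ tumor. Of 11 proximal signaling genes, 11 had a fold change below 0, with a median of -0.58. With edgeR 0 of these 11 passed, with 6 at an unadjusted p under 0.05, all lower (beside 9.79% of all genes), and 4 passed with DESeq2 (beside 4.25%) and 0 with limma-voom (beside 0.94%). Csk and Ptprc, at log2 fold changes of -0.09 and -0.16, lay within 1 SE of 0. Without saline tumor 3, saline tumor 4, or mAb-DXd/IMQ tumor 4, the FDR was 0.0657, 0.0846, and 0.0694 for Cd4 and 0.0657, 0.0846, and 0.0694 for Cd8a. Of 8 genes linked to gamma-delta T cells, 4 were tested and 0 passed with edgeR. At an unadjusted p under 0.05, 1 was lower (Cd163l1, log2 fold change -2.41), beside 9.79% of all genes. Il17a, the cytokine gene of a gamma-delta subset, had 0 counts. The recombination genes Rag1 and Rag2 had 0 counts. Dntt, which adds bases at joins, had 77 counts, of which the saline group held 71 and the other group 6. Its CPM overlapped between groups. Dntt did not pass the count filter and was not tested.

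Markers of other cell types were read beside these results. Of 7 T cell markers (Cd3d, Cd3e, Cd3g, Cd2, Cd5, Cd6, Thy1), 7 were detected. The fold change was below 0 for 6 of the 7, and 5 had an unadjusted p under 0.05, all lower, beside 47.4% and 9.79% of all genes. Of these, Cd2 passed (log2 fold change -1.44, FDR 0.0458; 0.519% of all genes passed as lower), and leaving out any 1 tumor gave it an FDR between 0.0518 and 0.155. Their summed level was 133, 133, 168, and 137 in saline tumors 1 to 4 and 164, 141, 193, and 128 in mAb-DXd/IMQ tumors 1 to 4 (CPM), set by Thy1, which stromal cells also express and which was not lower. Of 5 NK cell markers, 4 had counts and 0 passed with edgeR. At an unadjusted p under 0.05, 1 was higher (Eomes), beside 9.13% of all genes. The NK cell sums were 8.83, 9.02, 9.74, and 14 in saline tumors 1 to 4 and 13.1, 15.3, 17.9, and 18.8 in mAb-DXd/IMQ tumors 1 to 4 (CPM), led by Ncr1. Klra8, which BALB/c mice lack, was at 0. NK cells can carry germline gamma and delta constant transcripts, and their part in those levels was not tested.

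Of 5 B cell markers, 5 had counts and 3 were tested, of which 0 passed with edgeR. At an unadjusted p under 0.05, 1 was lower (Cd79b) and 1 higher (Pax5), beside 9.79% and 9.13% of all genes. The B cell sums were 1.32, 2.27, 1.33, and 3.02 in saline tumors 1 to 4 and 2.00, 1.26, 1.49, and 2.02 in mAb-DXd/IMQ tumors 1 to 4 (CPM), led by Cd79b. Of 4 neutrophil markers, 1 passed as lower, Csf3r (log2 fold change -0.80, FDR 0.0402), beside 0.519% of all genes. Without any 1 tumor other than mAb-DXd/IMQ tumor 1, its FDR was 0.0587 to 0.134. The neutrophil sums were 218, 79.5, 88.3, and 117 in saline tumors 1 to 4 and 29.6, 46.2, 51.6, and 64.1 in mAb-DXd/IMQ tumors 1 to 4 (CPM), led by S100a9. All 4 were lower at an unadjusted p under 0.05 (beside 9.79% of all genes), with a median log2 fold change of -1.76, and 3 were lower without overlap between groups (beside 6.12%). Their sums, like those of the alpha chain, did not overlap between groups, and their part in the alpha chain's levels was not tested. Of 4 macrophage markers, 0 passed with edgeR and 1 was lower at an unadjusted p under 0.05 (Mrc1), beside 9.79% of all genes. The macrophage sums were 282, 1051, 498, and 616 in saline tumors 1 to 4 and 366, 345, 447, and 299 in mAb-DXd/IMQ tumors 1 to 4 (CPM), led by Csf1r. With edgeR, 0 of the 4 epithelial, 4 fibroblast, 3 endothelial, 3 receptor (Esr1, Pgr, Erbb2), or 3 skeletal muscle markers passed. At an unadjusted p under 0.05, 2 of them were lower (Pdgfra and Esr1), beside 9.79% of all genes. The epithelial sum, led by Krt18, was 2017 ± 287 CPM and 2269 ± 413 CPM (SD, n = 4), the fibroblast sum, led by Col1a1, 3958 ± 1580 CPM and 4051 ± 1782 CPM (SD, n = 4), and the endothelial sum, led by Pecam1, 123 ± 40.8 CPM and 154 ± 14.1 CPM (SD, n = 4). The receptor sum, led by Erbb2, was 120.4 ± 20.3 CPM and 118 ± 13.9 CPM (SD, n = 4), and the muscle sum, led by Acta1, 188 ± 135 CPM and 141 ± 80.8 CPM (SD, n = 4). No batch is named in the labels, so no comparison within batches was made.

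These values come from 8 tumors taken at 1 time, and 1 tumor can set a V segment's mean. Most V, D, and J segments had few counts, so usage is described for each tumor and little can be said of segments at 0. Gene-level counts hold no joined sequences, so clones were not counted, and how reads spanning a join were assigned is not given in the sources used here. Reads had no molecular identifiers, and intervals cover counting error only, with counts taken as independent. Copied segments, shared exons, and overlapping genes make single-gene values uncertain. The share of T cells in each tumor was not measured.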

How the data were processed

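Bulk RNA-seq counts of 8 tumors, 4 per group by the sample labels, were used. The control is called saline in sample titles and PBS control in the treatment field. The authors deposited whole-number read counts per gene without normalization, with a length for each gene. Depth per tumor, with the CPM that 3 counts give, is in the report. The submitters' processing notes name HISAT2, HISAT, TopHat2, and the build mm39, but all 226 segment coordinates matched GENCODE M21 on GRCm38, whose transcripts gave the sequences. The counting program, strandedness, and treatment of reads with several matches are not given in the sources used here. The segments and gene lists were chosen with earlier results of these data known.

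Tests were run in R 4.3.3 with DESeq2 1.42.0, limma 3.58.1, and edgeR 4.0.16, and tables and figures made in Python 3.11.15 with numpy 2.4.6, pandas 2.3.3, scipy 1.17.1, and matplotlib 3.10.9. Genes were kept by filterByExpr (minimum count 10, minimum total 15), scaled by TMM, and compared between groups, with no covariate, by the quasi-likelihood F-test of edgeR. Benjamini-Hochberg adjustment covered all 18511 genes, with FDR under 0.05 and absolute log2 fold change above 0.58, the study's stated limits. Standard errors were approximated from the fold change and its F statistic. A comparison of counts showed no duplicated tumor within a group. CPM divides by all counts of a tumor. Inverse Simpson used the unbiased estimator, and equal-count expectations were computed by formula. Windows of 50 bases were compared over all T cell receptor genes and pseudogenes. The 95% Wilson intervals and the floor of 3 counts cover counting error only, with counts taken as independent.

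The text names every constant gene, the 5 alpha and 5 beta V segments with the highest mean CPM, gamma and delta V segments with at least 10 counts, the leading V segments of each tumor, segments of invariant and superantigen-deleted T cells, the most abundant J and D segments, and genes of the lists. Trbj1-1, Trbj1-3, Trbj1-4, Trbv1, Trbv20, Trav8d-2, Trdv5, and Gm43434 were named, and ratios between segments chosen, after values were seen. The lists were the receptor complex and coreceptors, proximal signaling, gamma-delta T cells, recombination, and markers of 10 cell types or tissues. A gene of the proximal signaling list is not reported here.

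The alternatives were other scalings, filters, and tests, no fold change limit, a replicate block, a length offset by a spline with 5 degrees of freedom, other indices and scales of diversity, levels per CD3 count, and leaving out each tumor. Halved counts for diversity, and alternatives for V levels and ratios, were added after the data were seen. The steps were tested on simulated counts, where DESeq2 called a larger share of unchanged genes than the other tools, and the limit set for that share was widened for DESeq2 after this was seen.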

Additional observations from a re-analysis of the deposited data

Results flagged for a closer look

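In 23 of 224 groups of 4 tumors checked, 1 tumor stood far from the other 3. The limit used gives about 1 in 20 by chance for independent, normally spread values. These values are neither, so that rate is no measure of an excess here. Many of the 23 are segments with few counts, where 3 tumors at or near 0 set the gap.

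Among sums, saline tumor 1 was low for all V segments at 4.72 CPM (others 8.65 to 9.21 CPM) and for delta V segments at 0.0607 CPM. Saline tumor 2 was high for the gamma chain at 13.3 CPM (others 6.68 to 7.25 CPM) and for Trac per beta constant count at 0.405. Saline tumor 3 was high for the sum of T cell markers at 168 CPM. The signaling genes Lcp2 at 35.8 CPM and Ptprc at 205 CPM were high in mAb-DXd/IMQ tumor 3.

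Among V segments in saline tumors, Trbv31 (0.830 CPM) and Trbv15 (0.405 CPM) were high in tumor 1, and Tcrg-V6 (0.267 CPM) in tumor 2. Trav8d-1 (1.35 CPM) was high in tumor 3. Trav2 (0.474 CPM), Trav1 (0.302 CPM), Trbv12-2 (0.230 CPM), and Tcrg-V3 (0.129 CPM) were high in tumor 4.

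In mAb-DXd/IMQ tumors, tumor 2 was high for Trbv14 (0.260 CPM), Trav8d-1 (0.130 CPM), Tcrg-V3, Trav2, and Trav5-1 (0.0433 CPM each), and Trav12-3 (0.0216 CPM). Tumor 1 was high for Tcrg-C3 (0.0387 CPM) and tumor 4 for Trdv2-2 (0.116 CPM). Apart from Trbv14, Trav8d-1, and Trdv2-2, these rest on fewer than 3 counts.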

How the results depend on the processing

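Of 777 comparisons of single-gene fold changes with an alternative, 711 kept direction and side of the thresholds, 28 lost a pass, 16 gained 1, and 22 changed sign. Of 121 for sums, diversity, and counts of genes, 100 stayed within the replicate spread or within 1.5 times the count. Genes past the thresholds were 197, and 358 without a filter, 787 with DESeq2, 116 with a length offset, and 10 to 203 with 1 tumor left out. T cell receptor segments past the thresholds were 0 with edgeR, 0 with limma-voom (4 at an unadjusted p under 0.05 with edgeR), 3 with DESeq2, and 0 with any tumor left out. In simulated counts DESeq2 called more unchanged genes than the other tools. The cause was not tested.

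With the replicate block, which pairs tumors of the same number, 14 genes and 0 segments passed, and Trbj1-4 and Trbj1-5 were at -0.0193 and -0.33. The tumors share only a number, with correlations of -0.17, -0.0545, 0.0793, and -0.0668 between same-numbered tumors. Cd4, Cd8a, Cd2, and Csf3r had an FDR of 0.0695, 0.0815, 0.106, and 0.117 with the replicate block. With edgeR and library size as the only scaling, Cd2 and Csf3r had an FDR of 0.0523 and 0.0601. With upper quartile factors Csf3r had an FDR of 0.0501.

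Per count on CD3 genes, log2 ratios turned to 0.30 for all segments (from -0.53), 0.50 for beta, 0.22 for gamma, and 0.45 for delta, and the alpha ratio moved to -0.40 from -1.24. This scale divides by genes that were themselves lower in mAb-DXd/IMQ tumors, and the groups of each chain overlapped on it. On the same scale, added after the data were seen, V ratios were -0.82 for alpha and -0.48 for beta, with overlapping groups, whereas in CPM neither overlapped. With 1 tumor left out, CPM ratios ranged over -0.64 to -0.40 for all, -1.43 to -1.09 for alpha, -0.43 to -0.21 for beta, -0.73 to -0.31 for gamma, and -0.71 to -0.20 for delta. Delta without overlapping genes gave no value, since tumors were left at 0.

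The beta V effective number, a log2 ratio of 0.07, was -0.20 at order 1, -0.14 at equal counts, -0.0272 per length, 0.0637 over segments of at least 10 counts, 0.25 with halved counts, and -0.0872 to 0.26 with 1 tumor left out, while alpha, at -0.73, was -1.24 at order 1 (with groups that no longer overlapped), -0.79 at equal counts, -0.84 per length, -0.43 over segments of at least 10 counts, -0.65 with halved counts, and -0.99 to -0.40 with 1 tumor left out. The fold changes of some genes took the other sign under an alternative. Trbc1, at -0.0404, was at 0.000656 with upper quartile factors and -0.24 to 0.12 with 1 tumor left out. Trbj1-4, at 0.0882, was at -0.61 with limma-voom, -0.0832 with a length offset, and -0.19 to 0.51 with 1 tumor left out. Trbj1-5, at 0.0704, was at -0.65, -0.18, and -0.42 to 0.47 in that order. With 1 tumor left out, Tcrg-C4 ran over -0.50 to 0.00449 (from -0.28), Trbj1-3 over -0.27 to 1.48 (from 0.36), Trbv13-1 over -0.40 to 0.76 (from 0.44), and Csk over -0.14 to 0.00505 (from -0.0873). The cause was not tested.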
